A study of Mus musculus with 9 samples.

Results

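The vacuolar ATPase (V-ATPase) is the pump that acidifies lysosomes and other endomembrane compartments, and the lysosomal surface around it is where the growth regulator mTORC1 docks. The genes described here were chosen by name: every row whose symbol starts with Atp6v or Atp6ap, and 20 named genes of the docking machinery and of the transcription factors it controls. The choice was made with earlier results of these data known, so shares of these genes called are a description. Of 46 rows that matched, 36 averaged 1 FPKM or more across all 9 libraries (FPKM is fragments per kilobase of transcript, scaled to library size), 18 of 26 V-ATPase rows and 18 of 20 docking rows, out of 10534 genes at that level among 24318 listed. The lowest row kept was Rragd at 3.72 FPKM, and the highest row left out was Atp6v1g2 at 0.629 FPKM.

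The study treated cultured mouse cells with brain-derived extracellular vesicles (BDEV), membrane particles shed by cells that other cells can take up, and asked whether status epilepticus, a state of prolonged seizures, changes what the vesicles do. There were 3 groups of 3 polyA-selected RNA-seq libraries. SE-BDEV cells received vesicles named for status epilepticus (library names EV Pilo), CON-BDEV cells received control vesicles (library names EV Saline), and Vehicle cells received vehicle (library names CON). The labels used here give neither dose nor exposure time, and do not say whether replicates were separate cultures, so p-values cover no more than the spread among these libraries, and that spread may be technical.

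The design text names BV2, an immortalised mouse microglial line, while the labels for source and cell line name N2a, which comes from mouse neuroblastoma. All 12 microglia and macrophage markers examined averaged 1 FPKM or more, with summed levels of 2867 to 3264 FPKM in SE-BDEV, 2930.1 to 3144 FPKM in CON-BDEV and 2844 to 2980.0 FPKM in Vehicle, against 0 of 12 neuroblastoma and neuronal markers. The noradrenergic enzyme genes Th and Dbh and the neuronal gene Stmn2 were listed at 0 in all 9 libraries. Of 18 astrocyte, oligodendrocyte and vessel markers 1 reached 1 FPKM, the myelin gene Mbp. Depth was inferred from whole steps in the smallest values and lay between 29230000 fragments (CON-BDEV replicate 2) and 33815000 fragments (Vehicle replicate 2), which makes 1 FPKM of a gene with a 2 kb transcript equal to 58.5 to 67.6 fragments. In bulk RNA, fewer cells of a type and less RNA per cell cannot be told apart.

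The pump has a peripheral sector, V1, whose A and B subunits hydrolyse ATP, and a membrane sector, V0, whose ring of proteolipid subunits turns against the a subunit and carries protons across the membrane. On the lysosome the Ragulator complex (Lamtor genes) anchors the Rag GTPases, which recruit mTORC1 when amino acids are plentiful, where Rheb then switches it on. The same Rags, with the folliculin complex, hold MiT/TFE transcription factors such as Tfeb and Tfe3 in the cytosol. Factors of this family (Tfeb, Tfe3, Mitf and Tfec) bind E-box sequences in promoters of lysosomal genes, V-ATPase genes among them.

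That motif was looked for in the 300 bases around each gene's start (250 before and 50 after) in RefSeq promoters of build GRCm38.p6, a later build than the one the expression files use. Promoters were found for 28 of the 36 genes kept. The letters CACGTG, which read the same on both strands, were present in 8 of the 28 genes (28.6%) and in 8 of their 35 promoter windows (22.9%), against 7.15% of 32851 promoters. The genes were Atp6v0b, Atp6v0d1, Atp6v0e, Atp6v1a, Fnip1, Lamtor1, Rheb and Rragc. The longer form TCACGTGA, which contains CACGTG, was present in 3 of them (10.7%, against 0.974% of all promoters), namely Atp6v0d1, Atp6v0e and Atp6v1a. A match is a description of letters and not a binding site. The 150 bases before the start are shown for 3 genes that hold CACGTG there (in capitals) and moved differently, higher with both vesicles (Atp6v0b), lower with SE-BDEV (Lamtor1) and not past the test (Atp6v1a), and for Atp6ap2, which was higher with both and has no CACGTG in its window.
Atp6v0b, chr4:117887330-117887479, minus strand: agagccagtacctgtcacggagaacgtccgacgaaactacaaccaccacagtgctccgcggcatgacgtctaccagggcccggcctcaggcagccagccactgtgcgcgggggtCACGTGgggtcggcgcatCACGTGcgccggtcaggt
Lamtor1, chr7:101905687-101905836, plus strand: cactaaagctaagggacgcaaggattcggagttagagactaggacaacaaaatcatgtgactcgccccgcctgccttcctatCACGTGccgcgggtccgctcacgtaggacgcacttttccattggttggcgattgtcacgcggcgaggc
Atp6v1a, chr16:44139260-44139409, minus strand: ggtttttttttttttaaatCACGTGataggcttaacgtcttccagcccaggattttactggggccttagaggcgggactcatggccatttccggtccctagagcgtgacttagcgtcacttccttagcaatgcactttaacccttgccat
Atp6ap2, chrX:12587609-12587758, plus strand: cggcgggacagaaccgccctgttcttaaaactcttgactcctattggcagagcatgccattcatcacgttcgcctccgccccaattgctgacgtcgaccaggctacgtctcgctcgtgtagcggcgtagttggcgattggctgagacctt
In the Atp6v0b promoter the motif starts 36 and 18 bases before the start of transcription, in Lamtor1 68 bases and in Atp6v1a 131 bases before it.

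For most pump subunits the cells transcribed a single main gene. Where mice have alternative genes for a subunit, 1 gene supplied nearly all the FPKM of that subunit in 5 of the 7 cases. Atp6v1b2 averaged 332 FPKM over the 9 libraries while Atp6v1b1, the form of acid-secreting kidney cells, was listed at 0. Atp6v1c1 averaged 301 FPKM with Atp6v1c2 at 0, and Atp6v1e1 141 FPKM with the testis form Atp6v1e2 at 0.00456 FPKM. Atp6v1g1 averaged 358 FPKM, the neuronal form Atp6v1g2 0.629 FPKM and Atp6v1g3 was at 0. Atp6v0e, a small V0 subunit, averaged 170.0 FPKM and Atp6v0e2 0.0220 FPKM. FPKM is scaled per length, so these levels can be set side by side.

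The a and d subunits were mixtures. The a subunit sets where the pump goes, and Tcirg1, the a3 form of lysosomes and osteoclasts (no member by name, and one of the pump's partners listed with it), gave 73.2% of the summed FPKM of the a genes, Atp6v0a1 22.5% and Atp6v0a2, a Golgi form, 4.28%, while the kidney form Atp6v0a4 was at 0. The share of Tcirg1 was 71.2% to 74.8% over the libraries. The d subunit couples V1 to the ring. Atp6v0d1 averaged 214 FPKM, and Atp6v0d2, the form of osteoclasts and some macrophages, 29.8 FPKM. Atp6v0d2 made up 11.7 ± 1.07% of the d transcripts in SE-BDEV, 11.1 ± 2.41% in CON-BDEV and 13.8 ± 1.04% in Vehicle (SD, n = 3 each), and the groups overlapped.

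The highest level of any member was that of Atp6v0c, the main proteolipid of the ring, with 536, 564 and 629.7 FPKM in SE-BDEV, 668, 594 and 531 FPKM in CON-BDEV and 583, 611 and 528 FPKM in Vehicle. The groups overlapped. The row Atp6v0c-ps2, a pseudogene of it, was listed at 254 FPKM on average, but the files give both rows 1 shared locus (chromosome 17 from 24300832 to 24306374 in mm9), so the split between them is uncertain. Summed, they gave 830.1, 808 and 867 FPKM in SE-BDEV, 889, 847 and 806 FPKM in CON-BDEV and 820.1, 835 and 828 FPKM in Vehicle.

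In the docking machinery Rraga (RagA) supplied all of the RagA and RagB transcripts, since Rragb was listed at 0. Of the RagC and RagD transcripts Rragc supplied 94.7%. Lamtor4, a subunit of a complex that needs all 5 Lamtor proteins, was listed at 0.198 FPKM while its 4 partners averaged 69.6 (Lamtor3), 63.9 (Lamtor1), 131 (Lamtor5) and 229 FPKM (Lamtor2), and whether its row counts the gene fully was not tested. In all, 6 of the 46 rows were listed at 0 in every library: Atp6ap1l, Atp6v0a4, Atp6v1b1, Atp6v1c2, Atp6v1g3 and Rragb.

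**Figure D1:**
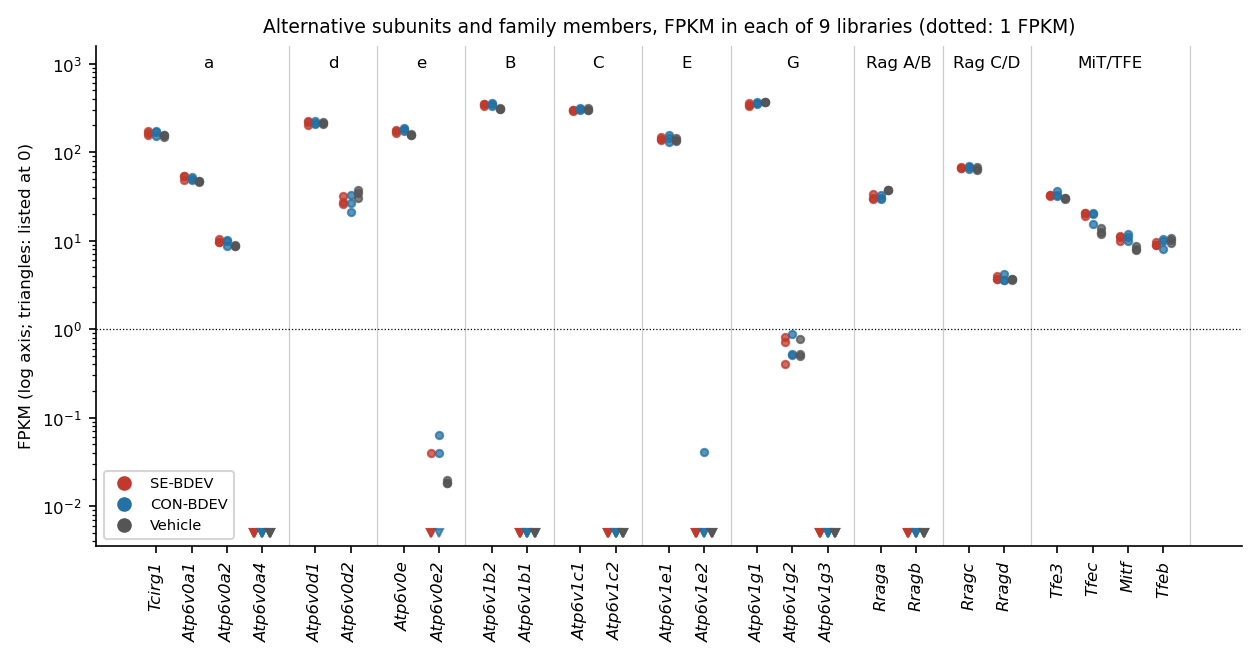
FPKM (log axis) of alternative genes for the same V-ATPase subunit, of the Rag GTPases and of the MiT/TFE factors in each of the 9 libraries, with SE-BDEV in red, CON-BDEV in blue and Vehicle in grey. Triangles mark a listed 0 and the dotted line 1 FPKM. Most subunits have a single gene above 1 FPKM, while the a and d subunits and the MiT/TFE family have several.

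SE-BDEV against Vehicle asked what vesicles named for status epilepticus did to these genes. Of 36 members 7 rose and 2 fell (limma, Benjamini-Hochberg adjusted p under 0.05 over all 10535 genes tested). Over all genes 11.9% were called, 6.76% higher and 5.14% lower, while 19.4% of the members rose and 5.56% fell. Since 35 of the 36 lie above 5 FPKM, the 13.6% called among the 8611 genes at that level stands nearer to them. After quantile or median scaling 4 rose and 2 fell. The changes were small: the median log2 fold change of the members was 0.04, against -0.00 for all genes, and their highest was 0.35 (Mitf). It was above 0 for 26 members (72.2%, against 49.8% of all genes). The 3 SE-BDEV libraries lay wholly above the 3 Vehicle libraries for 12 members (33.3%, against 16.5% of all genes) and wholly below for 3 (8.33%, against 16.3%), together 41.7% of members against 32.8% of all genes. Of the members, 3 had q under 0.05 in the authors' deposited table (8.33%, against 5.36% of the 11505 genes it tested): Mitf and Atp6ap2, both higher, and Atp6v0d2, lower.

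CON-BDEV against Vehicle asked the same of control vesicles. Of 36 members 6 rose and 1 fell, 16.7% and 2.78%, against 3.81% and 1.86% of all 10535 genes tested (5.67% in all, and 6.70% of the 8596 genes at 5 FPKM or more). After quantile normalization 3 rose and 1 fell. The members' median log2 fold change was 0.05, against 0.01 for all genes, and 26 members were above 0 (72.2%, against 52.0%). The libraries did not overlap for 17 members (47.2%, against 29.3% of all genes), 14 higher and 3 lower in CON-BDEV (38.9% and 8.33%, against 16.6% and 12.7%). The authors' deposited table had 2 members with q under 0.05 (5.56%, against 4.32% of the 11502 genes it tested), Mitf, higher, and Atp6v0d2, lower. Both comparisons use the same 3 Vehicle libraries, so a low or high Vehicle value moves both. Vehicle was also the tightest group, with a median SD between replicates of 0.0359 on the log2 scale over the members, against 0.0571 in SE-BDEV and 0.0655 in CON-BDEV, and the same order held over all genes kept (0.0648 in SE-BDEV, 0.0777 in CON-BDEV and 0.050 in Vehicle).

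The counts rested on few libraries. With SE-BDEV they were 5 members without SE-BDEV replicate 1, and 3, 5 and 4 without Vehicle replicates 1, 2 and 3. With CON-BDEV they were 1 without CON-BDEV replicate 3, and 0, 0 and 1 without Vehicle replicates 1, 2 and 3. Over all 6 such fits the counts ran from 3 to 8 with SE-BDEV and from 0 to 9 with CON-BDEV. The number called over all genes also moved in these fits, as given in the last section. Library names carry a number, 1 or 2, whose meaning the labels do not give. Within each number alone all 9 members called with SE-BDEV and all 7 called with CON-BDEV pointed the same way as in the pooled data. That outcome was fixed in advance, since in each of these genes the vesicle libraries lay wholly above or wholly below Vehicle. It therefore says nothing about the number, and number 1 holds 1 library of each vesicle group and number 2 holds 1 Vehicle library. With the number as a term in the model 6 and 2 members were called.

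**Figure D2:**
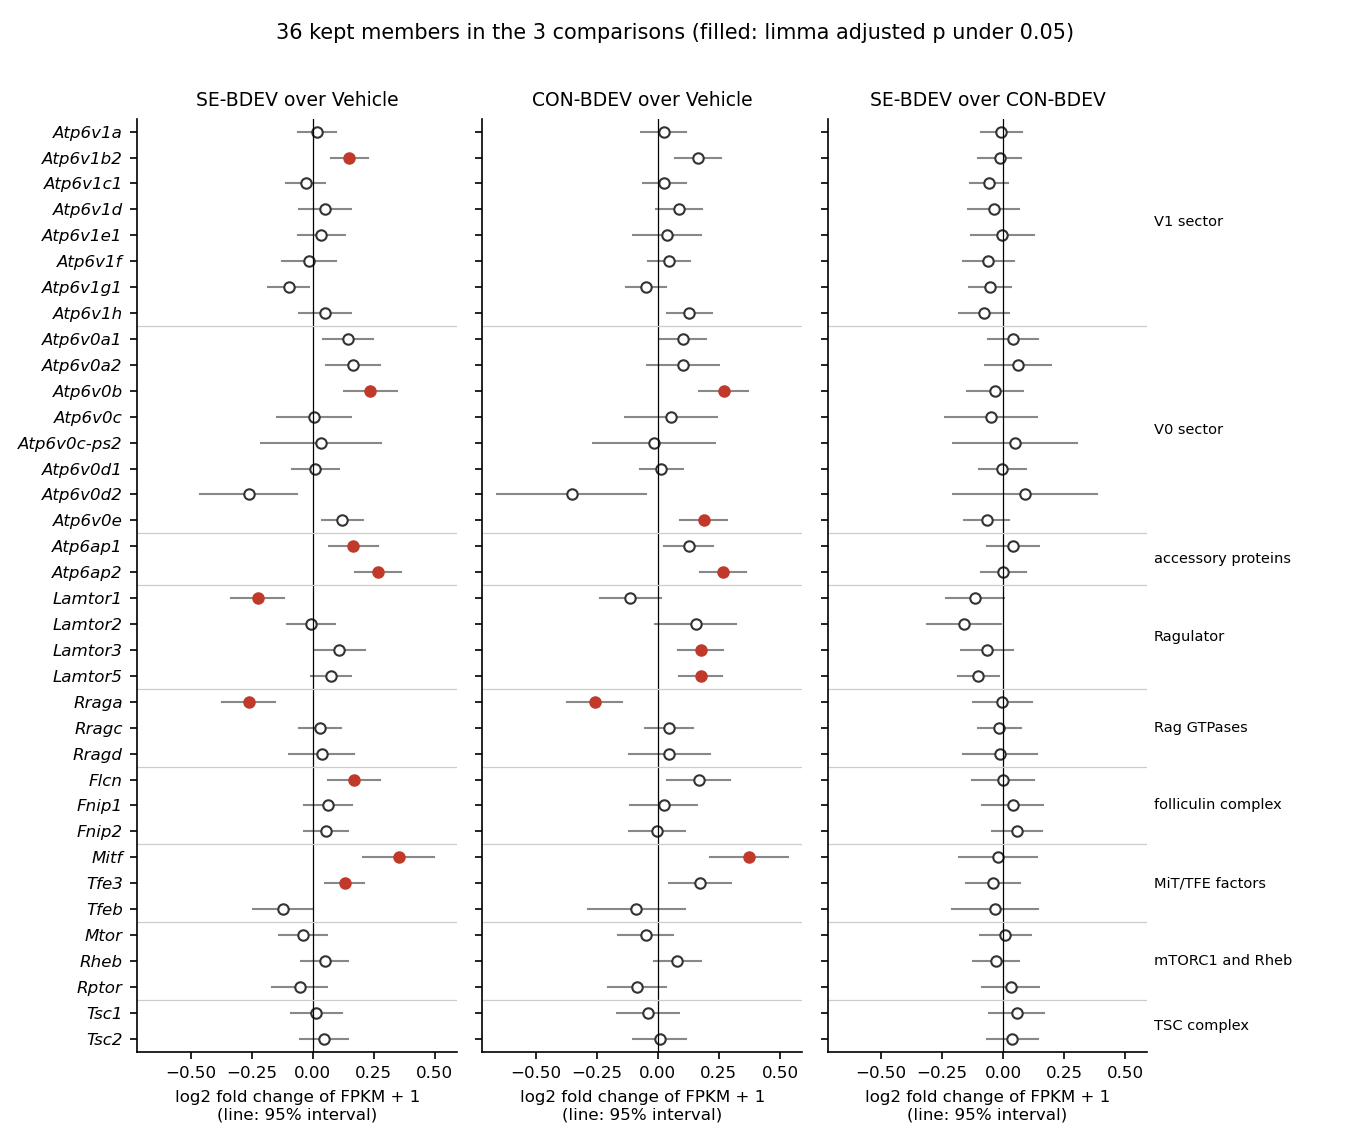
Log2 fold change of FPKM + 1 with its 95% interval for the 36 members, grouped by role, in SE-BDEV over Vehicle, CON-BDEV over Vehicle and SE-BDEV over CON-BDEV. Filled points passed the threshold: 9 members in the first panel, 7 in the second and 0 in the third.

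In the V1 sector 1 of 8 subunits was called with SE-BDEV and 0 of 8 with CON-BDEV (limma). The SE-BDEV share of 12.5% is close to the 11.9% called over all genes. Atp6v1b2, the B subunit that forms the ATP-binding head with A, had 345, 331 and 349 FPKM in SE-BDEV, 355, 328 and 352 FPKM in CON-BDEV and 305, 308 and 311 FPKM in Vehicle. All 6 vesicle libraries lay above all 3 Vehicle libraries. Its log2 fold change was 0.15 with SE-BDEV (SE 0.034, limma adjusted p = 0.0235) and 0.16 with CON-BDEV (limma adjusted p = 0.0552, over the threshold). With 1 library left out the SE-BDEV call held only without SE-BDEV replicate 2 (highest adjusted p = 0.107). The gene lies on chromosome 8 from 71561607 to 71637616 (mm9, starts counted from 1), a locus that the files share with Slc18a1. Whether the authors counted by strand is not given in the sources used here, so reads of genes listed at 1 shared locus may have been divided between them.

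The other V1 subunits moved little. Atp6v1g1, a stalk subunit with the highest level of the sector, had 345, 332 and 359 FPKM in SE-BDEV, 348, 366 and 360.1 FPKM in CON-BDEV and 366, 371 and 372 FPKM in Vehicle. Vehicle was highest without overlap, by under 1 FPKM over CON-BDEV replicate 2, yet the log2 fold changes of -0.10 with SE-BDEV and -0.05 with CON-BDEV missed the threshold (limma adjusted p = 0.123 and 0.467). The catalytic subunit gene Atp6v1a averaged 178 ± 4.04 FPKM in SE-BDEV, 179 ± 6.56 in CON-BDEV and 176 ± 3.38 in Vehicle (SD, n = 3 each), a log2 fold change of 0.02 with either preparation. Atp6v1h, a regulatory subunit, averaged 90.8 ± 4.99, 95.8 ± 1.76 and 87.6 ± 2.83 FPKM in the same order, with limma adjusted p of 0.521 with SE-BDEV and 0.0992 with CON-BDEV. The remaining 4, Atp6v1c1, Atp6v1d, Atp6v1e1 and Atp6v1f, had log2 fold changes of -0.03 to 0.09 in both comparisons.

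In the V0 sector 1 of 8 rows was called with SE-BDEV and 2 of 8 with CON-BDEV, all higher, against 6.76% and 3.81% of all genes called higher. The SE-BDEV share is again 12.5%, near the 11.9% called in either direction. Atp6v0b, a second kind of proteolipid in the ring, had 284, 266 and 304 FPKM in SE-BDEV, 297, 275 and 303 FPKM in CON-BDEV and 238, 243 and 243 FPKM in Vehicle. Vesicle libraries were all higher than Vehicle libraries, by 18% in mean with SE-BDEV and 20.8% with CON-BDEV. The log2 fold changes were 0.24 (SE 0.048, limma adjusted p = 0.0143) with SE-BDEV and 0.27 (SE 0.044, limma adjusted p = 0.0126) with CON-BDEV. The call with SE-BDEV was lost only without Vehicle replicate 1 among fits with 1 library left out (adjusted p = 0.0656), and that with CON-BDEV held only without CON-BDEV replicate 1 or 2 (highest adjusted p = 0.0712). It lies on chromosome 4 from 117556935 to 117559934 in mm9, and its promoter, printed above, holds CACGTG at both marked places.

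Atp6v0e had 174, 166 and 176 FPKM in SE-BDEV, 187, 180.4 and 172 FPKM in CON-BDEV and 155, 157 and 162 FPKM in Vehicle. Every vesicle library exceeded every Vehicle library. It rose with CON-BDEV (log2 fold change 0.19, limma adjusted p = 0.0398), a call that held only without CON-BDEV replicate 1 when 1 library was left out (highest adjusted p = 0.171), and was 0.12 with SE-BDEV (adjusted p = 0.0682). Its promoter holds TCACGTGA, as do those of Atp6v1a and Atp6v0d1, which stayed at log2 fold changes of 0.01 to 0.02 in both comparisons.

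Atp6v0d2 had 32.2, 27.0 and 25.9 FPKM in SE-BDEV, 21.1, 32.8 and 26.8 FPKM in CON-BDEV and 37.5, 34.6 and 30.6 FPKM in Vehicle. The groups overlapped, and CON-BDEV was the widest. The log2 fold changes of -0.26 with SE-BDEV and -0.35 with CON-BDEV, the largest decreases of any member, did not pass (limma adjusted p = 0.0872 and 0.157). In the authors' deposited table, made with Cuffdiff, Atp6v0d2 passed in both comparisons (q = 0.0420 with SE-BDEV and 0.00799 with CON-BDEV). The a subunits Atp6v0a1 and Atp6v0a2 averaged 51.6 ± 2.89 and 9.98 ± 0.475 FPKM in SE-BDEV, 50.1 ± 1.70 and 9.53 ± 0.804 in CON-BDEV and 46.6 ± 0.298 and 8.79 ± 0.164 in Vehicle. Neither passed, with log2 fold changes of 0.14 and 0.16 with SE-BDEV and 0.10 and 0.10 with CON-BDEV.

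The accessory proteins held the gene with the lowest adjusted p of all members in both comparisons. Atp6ap2, the prorenin receptor, which is needed to assemble the pump, had 92.0, 94.0 and 98.5 FPKM in SE-BDEV, 96.7, 93.9 and 93.5 FPKM in CON-BDEV and 75.3, 79.6 and 80.8 FPKM in Vehicle. The lowest vesicle library was 92.0 FPKM and the highest Vehicle library 80.8 FPKM. Mean levels were 20.7% higher with SE-BDEV and 20.5% higher with CON-BDEV, log2 fold changes of 0.27 (SE 0.042, limma adjusted p = 0.00469) and 0.27 (SE 0.042, limma adjusted p = 0.0117).

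The SE-BDEV call for Atp6ap2 held without each of the 6 libraries in turn, and the CON-BDEV call was lost without Vehicle replicate 1 or Vehicle replicate 2 (highest adjusted p = 0.0629). In the authors' deposited table its q was 0.0321 with SE-BDEV and 0.0522 with CON-BDEV. It lies on chromosome X from 12164885 to 12194177 in mm9, with no CACGTG in its promoter window. Atp6ap1, a pump assembly factor also known as Ac45, had 101, 96.8 and 108 FPKM in SE-BDEV, 103, 93.9 and 101 FPKM in CON-BDEV and 91.5, 90.7 and 90.2 FPKM in Vehicle. No vesicle library overlapped Vehicle. It rose with SE-BDEV (log2 fold change 0.17, limma adjusted p = 0.0402), a call that held only without SE-BDEV replicate 2 when 1 library was left out (highest adjusted p = 0.114), and was 0.13 with CON-BDEV (adjusted p = 0.13).

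Partners of the pump outside the named rows gave no call. Of 13 genes listed for its assembly, its a3 subunit and its regulators, 13 were tested, and 0 passed in any of the 3 comparisons (limma). Over all genes 11.9%, 5.67% and 0.0% passed in SE-BDEV against Vehicle, CON-BDEV against Vehicle and SE-BDEV against CON-BDEV. A list of 13 genes is too short for 0 calls to set it apart from those shares. In the same order 4, 2 and 0 genes had an unadjusted p under 0.05. The share of all genes at that level against Vehicle is not given here, so these counts are a description. The highest were Rnasek, a V0 component, with 229 ± 18.5, 220.2 ± 16.5 and 219 ± 9.31 FPKM in SE-BDEV, CON-BDEV and Vehicle, and Tcirg1 with 165 ± 9.02, 165 ± 10.5 and 153 ± 4.14 FPKM (SD, n = 3 each). Summed over the 18 V-ATPase rows, the level was 3611 ± 119 FPKM in SE-BDEV, 3682 ± 61.8 FPKM in CON-BDEV and 3504 ± 17.6 FPKM in Vehicle, a description to which Atp6v0c contributes most.

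**Figure D3:**
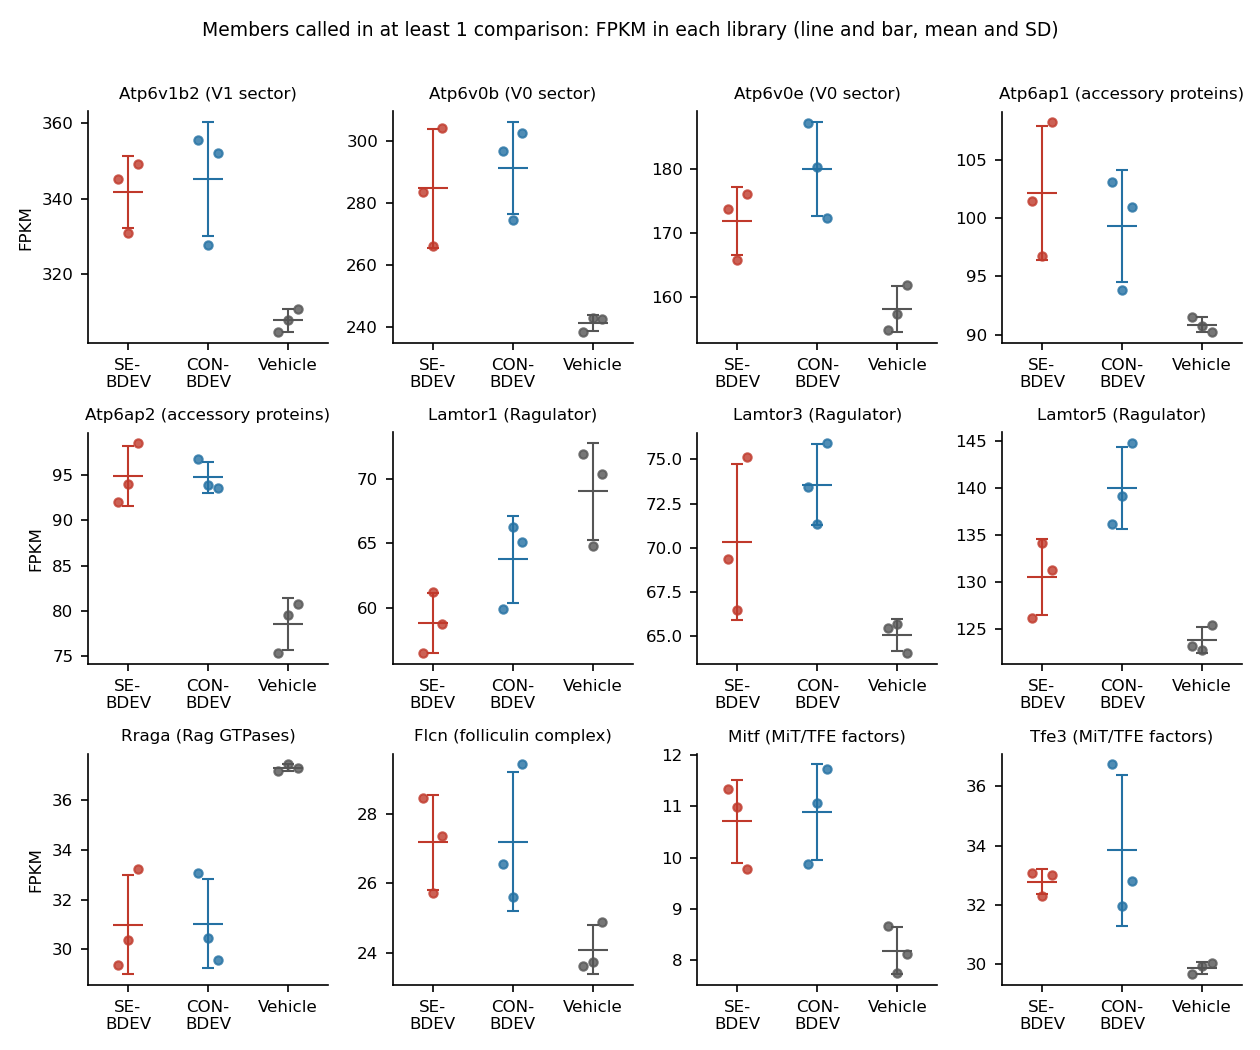
FPKM in each library of the 12 members that passed the threshold in at least 1 comparison, with SE-BDEV, CON-BDEV and Vehicle from left to right; the horizontal line and bar are the mean and SD of 3 libraries, and each axis starts above 0. Vesicle libraries lie above Vehicle in all of these genes but Lamtor1 and Rraga, where they lie below, with 1 Vehicle library of Lamtor1 inside the CON-BDEV range.

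Of 4 Ragulator genes 1 fell with SE-BDEV and 2 rose with CON-BDEV, where 5.14% of all genes fell with SE-BDEV and 3.81% rose with CON-BDEV. Lamtor1, the lipid-anchored subunit that ties the complex to the lysosome, had 56.5, 61.2 and 58.7 FPKM in SE-BDEV, 59.9, 66.2 and 65.1 FPKM in CON-BDEV and 71.9, 64.8 and 70.4 FPKM in Vehicle. SE-BDEV was lowest and did not overlap Vehicle, while CON-BDEV did. Its log2 fold change was -0.23 with SE-BDEV (SE 0.049, limma adjusted p = 0.0187), a call lost without SE-BDEV replicate 1, Vehicle replicate 1 or Vehicle replicate 3 (highest adjusted p = 0.0851), and -0.11 with CON-BDEV (adjusted p = 0.257). The files give it a locus shared with Tomt (chromosome 7 from 109048322 to 109060417 in mm9).

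Lamtor3 and Lamtor5 were higher with vesicles. Lamtor3, which pairs with Lamtor2, had 69.3, 66.5 and 75.2 FPKM in SE-BDEV, 73.5, 71.4 and 75.9 FPKM in CON-BDEV and 65.4, 65.7 and 64.0 FPKM in Vehicle. Lamtor5, the partner of Lamtor4, had 126, 134 and 131 FPKM in SE-BDEV, 136, 139 and 145 FPKM in CON-BDEV and 123, 123 and 125 FPKM in Vehicle. In both genes every vesicle library was above every Vehicle library. Both rose with CON-BDEV, by 0.18 (limma adjusted p = 0.0412) and 0.18 (limma adjusted p = 0.0356), and were 0.11 and 0.08 with SE-BDEV (adjusted p = 0.172 and 0.21). Both calls held only without CON-BDEV replicate 1 or 2 when 1 library was left out (highest adjusted p = 0.150 for each). Lamtor2, the highest of the complex, had 228, 214 and 218 FPKM in SE-BDEV, 222, 243 and 276 FPKM in CON-BDEV and 231, 222 and 210.4 FPKM in Vehicle. CON-BDEV replicate 3 was the highest library and the groups overlapped. Neither comparison passed (limma adjusted p = 0.942 with SE-BDEV and 0.241 with CON-BDEV).

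Of the Rag GTPases only Rraga was called among the 3 kept, lower with both preparations. Of all genes 5.14% were called lower with SE-BDEV and 1.86% with CON-BDEV. Rraga had 29.4, 30.4 and 33.2 FPKM in SE-BDEV, 33.1, 30.5 and 29.6 FPKM in CON-BDEV and 37.2, 37.5 and 37.3 FPKM in Vehicle. The 3 Vehicle libraries differed by less than 1 FPKM and all 6 vesicle libraries were lower. Means were 16.9% lower with SE-BDEV and 16.8% lower with CON-BDEV, log2 fold changes of -0.26 (SE 0.048, limma adjusted p = 0.00974) and -0.26 (SE 0.049, limma adjusted p = 0.0214). The SE-BDEV call held without each library in turn, and the CON-BDEV call only without CON-BDEV replicate 1 or 2 (highest adjusted p = 0.0994). The gene lies on chromosome 4 from 86221577 to 86223187 in mm9.

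Rragc, the RagA partner with the highest level of the family, had 65.4, 65.4 and 67.8 FPKM in SE-BDEV, 69.1, 64.8 and 67.1 FPKM in CON-BDEV and 63.2, 64.3 and 67.0 FPKM in Vehicle. The groups overlapped, with log2 fold changes of 0.03 and 0.05. Rragd, a known MiT/TFE target in other cells, averaged 3.75 ± 0.165 FPKM in SE-BDEV, 3.79 ± 0.391 in CON-BDEV and 3.63 ± 0.0491 in Vehicle, with log2 fold changes of 0.04 and 0.05 (limma adjusted p = 0.73 and 0.739).

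Folliculin, with its partners Fnip1 and Fnip2, acts on RagC and RagD at the lysosome. Flcn had 28.5, 25.7 and 27.4 FPKM in SE-BDEV, 26.6, 25.6 and 29.4 FPKM in CON-BDEV and 23.6, 23.7 and 24.9 FPKM in Vehicle. The vesicle libraries lay above Vehicle, the nearest by less than 1 FPKM. Flcn rose by 0.17 with SE-BDEV (SE 0.047, limma adjusted p = 0.0499), at the edge of the threshold, and the call held only without SE-BDEV replicate 2 (highest adjusted p = 0.168). With CON-BDEV its log2 fold change was 0.17 (adjusted p = 0.124). Fnip2, the more abundant partner, had 42.9, 44.2 and 45.0 FPKM in SE-BDEV, 40.7, 41.3 and 44.8 FPKM in CON-BDEV and 41.8, 44.0 and 41.3 FPKM in Vehicle. Its groups overlapped, as did those of Fnip1, and the log2 fold changes of both genes were -0.00 to 0.06.

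The MiT/TFE factors had the largest increase of any member. Mitf had 11.3, 11.0 and 9.78 FPKM in SE-BDEV, 9.87, 11.1 and 11.7 FPKM in CON-BDEV and 8.66, 7.74 and 8.12 FPKM in Vehicle. No vesicle library was as low as the highest Vehicle library. Means were 31.1% higher with SE-BDEV and 33.3% higher with CON-BDEV, and on the log2 scale of FPKM + 1, which understates changes at such levels, the fold changes were 0.35 (SE 0.064, limma adjusted p = 0.00933) and 0.37 (SE 0.07, limma adjusted p = 0.0212). The SE-BDEV call held without each library in turn, and the CON-BDEV call only without CON-BDEV replicate 1 or 2 (highest adjusted p = 0.103). In the authors' deposited table Mitf passed in both comparisons (q = 0.00196 with SE-BDEV and 0.00245 with CON-BDEV, log2 fold changes of 0.39 and 0.41). It lies on chromosome 6 from 97757052 to 97971352 in mm9.

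Tfe3, the most abundant factor, had 33.1, 32.3 and 33.0 FPKM in SE-BDEV, 36.8, 32.0 and 32.8 FPKM in CON-BDEV and 29.6, 29.9 and 30.0 FPKM in Vehicle. All vesicle libraries were higher than Vehicle. It rose by 0.13 with SE-BDEV (limma adjusted p = 0.046), a call that each of the 6 fits with 1 library left out lost (highest adjusted p = 0.154), and was 0.17 with CON-BDEV (adjusted p = 0.106). Tfeb had 9.52, 8.98 and 9.01 FPKM in SE-BDEV, 9.82, 10.5 and 8.08 FPKM in CON-BDEV and 10.2, 10.6 and 9.42 FPKM in Vehicle. Its groups overlapped, and its log2 fold changes of -0.12 and -0.09 pointed down without passing (limma adjusted p = 0.185 and 0.581).

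Tfec, the family member typical of macrophages, is not among the named rows and was listed with the MiT/TFE targets. It had 20.6, 18.9 and 20.3 FPKM in SE-BDEV, 20.3, 15.4 and 19.8 FPKM in CON-BDEV and 11.7, 12.6 and 13.9 FPKM in Vehicle, with each vesicle library above each Vehicle library. It rose by 0.61 with SE-BDEV (limma adjusted p = 0.000477) and 0.50 with CON-BDEV (limma adjusted p = 0.0262). The SE-BDEV call held without each library in turn, and the CON-BDEV call only without CON-BDEV replicate 1 or 2 (highest adjusted p = 0.108). Of the summed FPKM of the 4 factors, Tfec held 27.5 ± 0.810% in SE-BDEV, 25.4 ± 2.65% in CON-BDEV and 20.9 ± 1.58% in Vehicle. Tfeb held 12.6 ± 0.141%, 13.1 ± 2.02% and 16.6 ± 1.10% in the same order (SD, n = 3 each).

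Several genes known as MiT/TFE targets in lysosome and autophagy rose with the vesicles. Of the 20 kept of 21 listed, 12 rose with SE-BDEV and 0 fell (60% higher, against 6.76% of all genes). With CON-BDEV 6 rose and 0 fell (30%, against 3.81%). Median log2 fold changes were 0.17 and 0.14, against -0.00 and 0.01 over all genes. All 20 averaged 5 FPKM or more, so the larger shares called among genes at that level, given above, stand nearer to them. Both counts include Tfec, itself a factor of the family. With SE-BDEV the count was 5 without SE-BDEV replicate 1, and 3, 4 and 4 without Vehicle replicates 1, 2 and 3. With CON-BDEV it was 9 without CON-BDEV replicate 2 and 1 without CON-BDEV replicate 3 or any single Vehicle library, the gene left being Sqstm1. With no filter on low values 6 rose with SE-BDEV and 1 with CON-BDEV, without the mean-variance trend 8 and 3, and with a block for library-name number 12 and 2. After median scaling 12 rose with SE-BDEV and 3 with CON-BDEV, and after quantile normalization 9 rose with SE-BDEV while 4 rose and 1 fell with CON-BDEV. The list was drawn up with earlier results on lysosomal genes of these libraries known. Sqstm1, an autophagy receptor that NRF2 also drives, had 217, 195 and 198 FPKM in SE-BDEV, 197, 188 and 231 FPKM in CON-BDEV and 138, 132 and 136 FPKM in Vehicle. Vesicle libraries were all higher, and it rose by 0.58 with SE-BDEV (limma adjusted p = 0.000104) and 0.59 with CON-BDEV (limma adjusted p = 0.00426), calls that held without each library in turn.

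Gabarapl1, an autophagosome protein, rose by 0.28 with SE-BDEV and 0.31 with CON-BDEV (limma adjusted p = 0.00208 and 0.02), and the protease gene Ctsd by 0.21 and 0.22 (limma adjusted p = 0.0195 and 0.0459). Uvrag, which acts in autophagosome maturation, rose by 0.24 with SE-BDEV (limma adjusted p = 0.0466) and was 0.18 with CON-BDEV (adjusted p = 0.161). With 1 library left out Gabarapl1 kept its SE-BDEV call in all 6 fits and its CON-BDEV call only without CON-BDEV replicate 1 or 2 (highest adjusted p = 0.0915), Ctsd only without SE-BDEV replicate 2 or 3 (0.0700) and CON-BDEV replicate 2 (0.148), and Uvrag only without SE-BDEV replicate 3 (0.145). Gpnmb, often used as a readout of MiT/TFE activity, averaged 2102 ± 86.8, 2087 ± 76.8 and 2251 ± 22.4 FPKM in SE-BDEV, CON-BDEV and Vehicle. Every vesicle library was below every Vehicle library, with log2 fold changes of -0.10 and -0.11 that did not pass (limma adjusted p = 0.139 and 0.137); it was chosen after its values were seen.

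**Figure D4:**
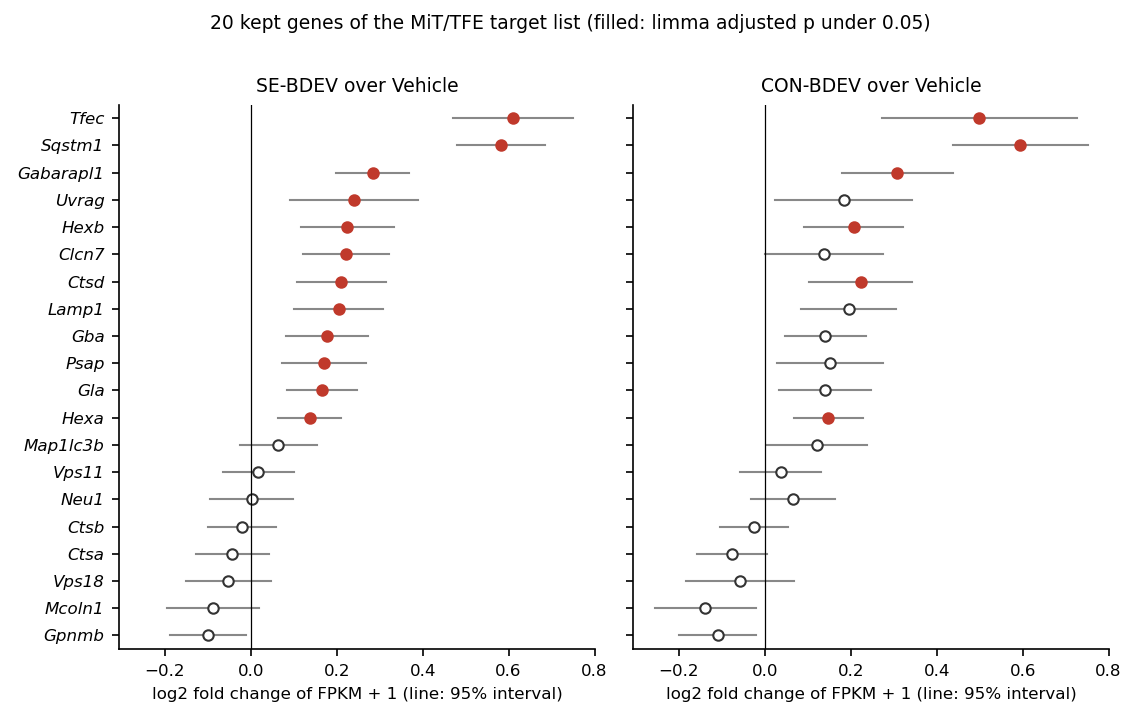
Log2 fold change of FPKM + 1 with its 95% interval for the 20 kept genes of the MiT/TFE target list, in SE-BDEV over Vehicle and in CON-BDEV over Vehicle. Filled points passed the threshold (12 and 6 genes), all higher, while Gpnmb and Mcoln1 lie lowest and did not pass.

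None of the 5 genes of mTORC1, Rheb and the TSC complex was called in any comparison, and 0 had an unadjusted p under 0.05 (limma). Over all genes 11.9% were called with SE-BDEV and 5.67% with CON-BDEV against Vehicle, so 0 of 5 does not set these genes apart. Rheb, the GTPase that activates the kinase, had 41.4, 43.4 and 44.9 FPKM in SE-BDEV, 43.5, 45.4 and 43.5 FPKM in CON-BDEV and 41.4, 40.8 and 43.0 FPKM in Vehicle. Its SE-BDEV range overlapped Vehicle and its CON-BDEV range lay just above, with log2 fold changes of 0.05 and 0.08 (limma adjusted p = 0.489 and 0.293). The kinase gene Mtor averaged 12.9 ± 0.383 FPKM in SE-BDEV, 12.8 ± 0.541 in CON-BDEV and 13.2 ± 0.176 in Vehicle, and Rptor, which docks the kinase to the Rags, 10.6 ± 0.542, 10.4 ± 0.470 and 11.1 ± 0.253 FPKM in the same order (SD, n = 3 each). Tsc2, the part of the TSC complex that switches Rheb off, had 21.2, 20.6 and 22.4 FPKM in SE-BDEV, 21.3, 19.8 and 21.3 FPKM in CON-BDEV and 20.4, 21.2 and 20.5 FPKM in Vehicle. The groups overlapped, as they did for Tsc1, and the log2 fold changes of both lay between -0.04 and 0.05. The files give Rptor a locus shared with Chmp6 and Tsc2 a locus shared with Pkd1.

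Genes around this machinery gave few calls. Of 12 further mTOR complex and substrate genes 0 passed in any comparison (limma), while 1 had an unadjusted p under 0.05 in each comparison with Vehicle. With 11.9% of all genes called with SE-BDEV and 5.67% with CON-BDEV, 0 of 12 does not set this list apart. Without SE-BDEV replicate 1 a single gene passed, lower, and without CON-BDEV replicate 1, 1 higher and 1 lower. Eif4ebp1 and Eif4ebp2, translation repressors that mTORC1 inactivates, had the highest levels, 170.1 ± 26.5, 165 ± 20.1 and 149.9 ± 7.64 FPKM for Eif4ebp1 and 51.9 ± 1.48, 48.7 ± 2.13 and 53.0 ± 0.845 FPKM for Eif4ebp2 in SE-BDEV, CON-BDEV and Vehicle. Of 17 amino acid sensing genes tested 2 fell with SE-BDEV and 0 rose, which is 11.8% called, against 11.9% of all genes. With CON-BDEV 1 fell (5.88%, against 5.67%), and with no filter on low values 0 passed in either comparison. The genes that fell with SE-BDEV were Kptn (-0.30, limma adjusted p = 0.0179), which belongs to the complex that holds the Rag inhibitor GATOR1 on the lysosome, and Gatsl3 (-0.30, limma adjusted p = 0.0283), listed by RefSeq as Castor1, an arginine sensor. With CON-BDEV these were -0.23 and -0.33 (adjusted p = 0.073 and 0.0703), and the gene that fell was Sesn1, of the leucine sensor family (-0.23, limma adjusted p = 0.0263), which was -0.30 with SE-BDEV (adjusted p = 0.0786). With 1 library left out the Kptn call was lost without Vehicle replicate 1 or 2 (highest adjusted p = 0.0812), the Gatsl3 call held only without SE-BDEV replicate 3 (0.0975), and the Sesn1 call only without CON-BDEV replicate 1 or 2 (0.128). Sesn2, of the same family and named after its values were seen, had 43.0, 41.2 and 26.6 FPKM in SE-BDEV, 25.2, 41.2 and 41.6 FPKM in CON-BDEV and 27.9, 25.2 and 25.0 FPKM in Vehicle. In each vesicle group 2 libraries were above Vehicle and 1 lay within its range, and the log2 fold changes, the largest of the list, were 0.46 with SE-BDEV and 0.42 with CON-BDEV without passing (limma adjusted p = 0.0788 and 0.161).

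Of 12 lysosomal ion channels and exchangers tested 1 rose and 2 fell with SE-BDEV, and 0 rose and 2 fell with CON-BDEV. The shares were 8.33% higher and 16.7% lower with SE-BDEV, against 6.76% and 5.14% of all genes, and 16.7% lower with CON-BDEV, against 1.86%. With no filter on low values 1 rose and 1 fell with SE-BDEV, and 0 passed with CON-BDEV. Clcn6, a chloride and proton exchanger of late endosomes, had 6.10, 6.51 and 6.69 FPKM in SE-BDEV, 6.72, 5.87 and 6.20 FPKM in CON-BDEV and 8.06, 8.13 and 8.36 FPKM in Vehicle. Vehicle was higher without overlap, and Clcn6 fell in both comparisons (-0.31 with SE-BDEV and -0.34 with CON-BDEV, limma adjusted p = 0.00697 and 0.0166). Tmem175, a lysosomal potassium and proton channel, had 4.27, 4.50 and 4.42 FPKM in SE-BDEV, 3.70, 4.46 and 3.99 FPKM in CON-BDEV and 5.53, 5.15 and 5.40 FPKM in Vehicle. It was also lower in every vesicle library (-0.24 and -0.33, limma adjusted p = 0.0249 and 0.0323). Clcn7, the exchanger that carries chloride into lysosomes as the pump works, is also in the MiT/TFE target list and rose with SE-BDEV (0.22, limma adjusted p = 0.0135) and was 0.14 with CON-BDEV (adjusted p = 0.214). With 1 library left out Clcn6 kept its SE-BDEV call in all 6 fits, Tmem175 only without SE-BDEV replicate 3 (highest adjusted p = 0.106), and Clcn7 lost its call without Vehicle replicate 1 or 3 (0.0574). With CON-BDEV both decreases held only without CON-BDEV replicate 1 or 2 (0.0799 for Clcn6 and 0.138 for Tmem175).

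SE-BDEV against CON-BDEV asked whether the status epilepticus vesicles acted differently on these genes. None of the 36 members passed (limma, 0.0% of 10532 genes called), and 2 had an unadjusted p under 0.05 (5.56%, against 4.83% of all genes). These were Lamtor2 and Lamtor5. The members' median log2 fold change was -0.01 against -0.00 for all genes, and their range was -0.16 to 0.09. The libraries did not overlap for 2 members (5.56%, against 7.94% of all genes), both lower in SE-BDEV (5.19% of all genes), namely Lamtor5 and Atp6v1c1.

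A p that misses the threshold does not show that the 2 preparations act alike, and the intervals say how large a difference these libraries leave possible. Lamtor2 had a log2 fold change of -0.16 in SE-BDEV over CON-BDEV, with a 95% interval of -0.31 to -0.01, and Lamtor5 -0.10 (-0.18 to -0.02). Lamtor1 and Lamtor3 were at -0.11 (-0.23 to 0.00) and -0.07 (-0.17 to 0.04). Within library-name number 1 the Lamtor2 difference was 0.04, and within number 2 it was -0.26. For the genes called against Vehicle with both preparations the intervals were -0.09 to 0.09 for Atp6ap2, -0.15 to 0.08 for Atp6v0b, -0.18 to 0.14 for Mitf and -0.12 to 0.12 for Rraga. The widest was that of Atp6v0d2, -0.21 to 0.39.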

How the data were processed

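The 9 libraries were grouped by their titles, and table columns were matched to them by library name. Per the submitters' processing notes, TopHat2, Cuffdiff and build mm9 were used by the authors; their versions and the annotation are not given in the sources used here. The FPKM tables deposited by the authors hold 24318 genes each, with the Vehicle libraries beside CON-BDEV in the first and beside SE-BDEV in the second. Per the file headers, the deposited Cuffdiff results list a log2 fold change, a test score, a p-value and a q-value per gene. The same Vehicle libraries differ between tables by 1 constant factor each (1.0004, 1.0001 and 1.0008), and SE-BDEV values were divided by the geometric mean of the 3 to place all libraries on 1 scale. Genes whose estimate failed (2 in the CON-BDEV table and 1 in the SE-BDEV table, none a member) were left out. There are 100 entries that name several genes.

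FPKM are not counts, and depth was estimated from 69 genes with a single annotated transcript of at least 4000 nt whose values, under 0.05 FPKM, fell into whole steps (within 0.05 of a step). It limits precision as counting error only. Values were tested as log2(FPKM + 1) with limma 3.58.1 in R 4.3.3 (2-sided, eBayes with trend) for genes averaging 1 FPKM or more in the fit, each vesicle group against Vehicle in its own table and SE-BDEV against CON-BDEV in all 9 joined libraries, with Benjamini-Hochberg adjustment over all genes and a threshold of 0.05. An exact permutation test of 3 against 3 libraries cannot give a p below 0.1. The code was tested on simulated data with known changes. Alternatives were another pseudocount (0.1), other filters, quantile and median scaling, no trend, blocks for replicate number and library-name number, and leaving out each library. Values in every library are given for members past the threshold in any comparison and for the most abundant member of each role. From other pathway lists up to 4 called genes a comparison are named, or the 2 most abundant where none passed. The members and lists were chosen with earlier results of these data known.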

Additional observations from a re-analysis of the deposited data

How the results depend on the processing

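The number of members called depended on the processing, and no called change took the opposite sign in any alternative. For the 9 and 7 members called, part of that outcome was fixed in advance, since their vesicle libraries lay wholly above or below Vehicle. Leaving out a library or changing the pseudocount, filter or trend could not reverse their sign. With SE-BDEV against Vehicle 9 members were called, and 5 with no filter on low values and 5 without the mean-variance trend. With CON-BDEV against Vehicle 7 were called, and 1 with no filter, 4 after quantile normalization, 4 without the trend and 2 with a block for library-name number. The cause was not tested, except that with no filter 15346 and 15334 genes were tested in place of 10535 in each. With 1 library left out the counts ran from 3 to 8 with SE-BDEV and from 0 to 9 with CON-BDEV. SE-BDEV against CON-BDEV gave 0 members in each of 15 alternatives. Over all genes 1253 were called with SE-BDEV and 597 with CON-BDEV, against 726 and 112 with no filter, and 501 to 1311 and 84 to 1067 with 1 library left out. The replicate numbers did not pair the libraries: the correlation of same-numbered libraries after removal of group means was over 0.1 in 3 of 9 pairs (mean -0.0397), and 3 of 9 libraries were closest to their own number. With the replicate number as a block 7 members were called with SE-BDEV and 4 with CON-BDEV. With SE-BDEV the calls of Atp6ap2, Mitf and Rraga held in all 14 alternatives. With CON-BDEV no call did, and that of Atp6ap2 held in 12. A limit of 0.5 FPKM would keep 37 members (Atp6v1g2 joins) and one of 5 FPKM 35. At these depths only rows far under 1 FPKM rest on few fragments.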
